A study of Homo sapiens with 9 samples.

Results

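Squamous differentiation genes other than keratins were followed in EGI-1 cells in which FOSL1 had been knocked down. The 10 genes, TP63, SFN, CALML5, IVL, SPRR1B, SPRR3, TGM1, KLK6, KLK10 and LY6D, were taken as a list of known squamous and keratinocyte genes and found by Ensembl identifier among the 58381 genes counted in every library. Of these 10, 9 had enough counts to be tested, among 12814 tested genes in all, and TP63 was too low to test. The list was chosen with earlier results of these data known.

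EGI-1 is an established human cholangiocarcinoma line, that is, a cancer line of bile duct origin. The libraries came from cells with a TET-inducible hairpin RNA, either FOSL1sh3 (3 libraries) or FOSL1sh10 (3 libraries), which target FOSL1, or the control hairpin GFPsh (3 libraries). Doxycycline at 2 ug per ml was given for 4 days to the cells of all groups, the control hairpin included, and cells were then seeded and harvested after 24 hours, so no library shows cells without doxycycline or without a hairpin. The labels do not say whether each hairpin line was a clone or a pool, nor that the replicates were separate cultures, and the p-values below therefore reflect the spread among these libraries, which may be technical.

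In stratified squamous epithelia such as skin and oesophagus, cells leaving the basal layer build a cornified envelope beneath the plasma membrane. Precursors such as involucrin and the small proline-rich proteins are crosslinked there by transglutaminases, and kallikrein proteases later act in shedding of the surface cells. FOSL1 encodes FRA-1, a subunit of the AP-1 transcription factor, and AP-1 elements are known regulatory sequences of several envelope genes in keratinocytes. The bile duct has a simple epithelium that does not cornify, and squamous genes in bile duct cancers are known mainly from adenosquamous and squamous variants.

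The libraries held 6893026 to 10604251 counts, and a count of 0 allows up to 3 counts, or 0.305 to 0.432 CPM (counts scaled to a common library total and by the TMM factors of edgeR). FOSL1 stood at 72.1, 70.1 and 44.8 CPM in FOSL1sh3 and 70.7, 57.0 and 65.6 CPM in FOSL1sh10, against 302, 256 and 182 CPM in GFPsh. All 6 libraries of the FOSL1 hairpins thus lay below all 3 controls (log2 fold change -1.98, SE 0.198 with FOSL1sh3 and -1.94, SE 0.197 with FOSL1sh10). Of 9 biliary epithelium markers, 7 or 8 had a count in each library, and their summed level was 11973 to 13338 CPM in FOSL1sh3, 10698 to 12675 CPM in FOSL1sh10 and 10686 to 11574 CPM in GFPsh, although CFTR and SPP1 had 3 or fewer counts over all libraries. Markers of hepatocytes summed to 8.06 to 11.6 CPM in FOSL1sh3, 13.8 to 17.6 CPM in FOSL1sh10 and 6.27 to 7.29 CPM in GFPsh, with 1 count for ALB over all libraries. Most of that sum was SERPINA1, a secreted protease inhibitor, at 9.09 CPM in FOSL1sh3, 15 CPM in FOSL1sh10 and 6.22 CPM in GFPsh, called higher with FOSL1sh10 (log2 fold change 1.27, adjusted p = 0.00141). Markers of leukocytes (5.22 to 6.76, 5.12 to 8.84 and 2.92 to 4.51 CPM in FOSL1sh3, FOSL1sh10 and GFPsh) and of fibroblasts and endothelium (4.3 to 8, 8.11 to 9.55 and 2.92 to 4.73 CPM in the same groups) were also low. The part of these differences in the results was not tested. Keratins of stratified squamous epithelium summed to 1175 to 1457 CPM in FOSL1sh3, 1709 to 1758 CPM in FOSL1sh10 and 1115 to 1146 CPM in GFPsh. The largest part in GFPsh was KRT10, at 539 CPM, against 514 CPM in FOSL1sh3 and 496 CPM in FOSL1sh10. KRT10 was not called with either hairpin (log2 fold change -0.07, adjusted p = 0.8, and -0.12, adjusted p = 0.711). KRT14 and KRT4 had 51 and 57 counts over all libraries, KRT1 had none, and these keratins were not tested. KRT13, a keratin of the suprabasal layers of non-cornified epithelia, averaged 49 CPM in FOSL1sh3, 16.4 CPM in FOSL1sh10 and 25.2 CPM in GFPsh, and was called higher with FOSL1sh3 (log2 fold change 0.96, adjusted p = 0.00508). The basal keratin KRT5 averaged 159 CPM in FOSL1sh3, 422 CPM in FOSL1sh10 and 120 CPM in GFPsh, and KRT5 and KRT6A, a keratin of activated epidermis, were called higher with FOSL1sh10 (log2 fold change 1.81, adjusted p = 1.27e-07, and 0.82, adjusted p = 0.0024).

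The promoter windows of 3 envelope precursors hold the letters of the AP-1 element, and their sequences are shown for that reason, with CALML5, the gene called higher with both hairpins, for comparison. RefSeq (GRCh38.p14) windows of 250 bases before to 50 bases after the start site were used for 8 of the 10 genes, in 9 windows. No window was used for TGM1 or LY6D, so nothing is said of the element in either gene. Sequences run 5′ to 3′ on the strand of the gene, and capitals mark each match to TGANTCA, the AP-1 element with any base at its centre, searched on both strands. The windows are IVL at chr1:152908296-152908595 (plus strand), SPRR1B at chr1:153030953-153031252 (plus strand), SPRR3 at chr1:153001499-153001798 (plus strand) and CALML5 at chr10:5499521-5499820 (minus strand).
IVL: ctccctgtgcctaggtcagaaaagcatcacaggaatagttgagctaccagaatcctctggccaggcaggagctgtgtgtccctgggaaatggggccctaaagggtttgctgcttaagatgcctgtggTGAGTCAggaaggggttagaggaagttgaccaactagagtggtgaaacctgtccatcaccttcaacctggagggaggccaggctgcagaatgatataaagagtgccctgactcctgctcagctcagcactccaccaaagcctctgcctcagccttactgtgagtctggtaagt
SPRR1B: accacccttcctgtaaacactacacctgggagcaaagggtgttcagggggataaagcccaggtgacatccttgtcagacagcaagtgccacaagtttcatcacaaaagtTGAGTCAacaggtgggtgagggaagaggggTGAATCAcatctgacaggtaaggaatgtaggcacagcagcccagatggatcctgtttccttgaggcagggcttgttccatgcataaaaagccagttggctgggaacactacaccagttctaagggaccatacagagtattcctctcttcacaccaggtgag
SPRR3: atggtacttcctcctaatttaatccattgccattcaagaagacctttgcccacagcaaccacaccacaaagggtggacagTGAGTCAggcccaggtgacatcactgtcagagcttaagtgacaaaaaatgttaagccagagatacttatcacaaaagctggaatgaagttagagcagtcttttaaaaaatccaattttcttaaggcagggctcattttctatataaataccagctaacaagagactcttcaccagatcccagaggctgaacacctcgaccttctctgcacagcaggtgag
CALML5: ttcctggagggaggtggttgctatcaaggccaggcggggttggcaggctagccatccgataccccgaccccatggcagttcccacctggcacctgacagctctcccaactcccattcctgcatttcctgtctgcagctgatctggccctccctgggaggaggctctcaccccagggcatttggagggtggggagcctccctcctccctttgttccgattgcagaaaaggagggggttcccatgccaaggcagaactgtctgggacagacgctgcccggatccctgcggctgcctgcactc

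The perfect element TGACTCA, read on either strand as TGACTCA or TGAGTCA, began 123 bases upstream of the start site of IVL, 141 bases upstream in SPRR1B and 170 bases upstream in SPRR3. Allowing any centre base added TGATTCA 170 bases upstream of SFN and a second match, TGAATCA, 111 bases upstream of SPRR1B, so that 4 genes held TGANTCA. Every TGACTCA match is also a TGANTCA match. None of the 8 genes with a window held TGACGTCA, the related CRE element. Over all 35116 promoter windows of the same length, 4.95% held TGACTCA, 7.71% held TGANTCA and 1.85% held TGACGTCA. A match is a description of these letters and does not show binding, and no match says only that the letters are not in this window.

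**Figure D1:**
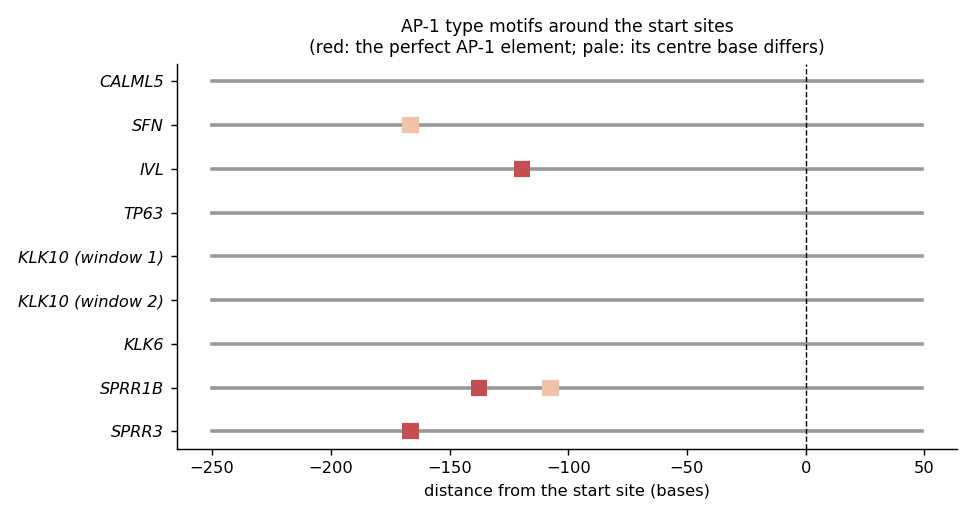
Position of AP-1 type elements (squares) around the RefSeq start sites of the 8 squamous genes with a promoter window; the x axis is the distance from the start site in bases, and each grey line is 1 window of 250 bases before to 50 bases after it. The perfect element lies 123 bases upstream in IVL, 141 in SPRR1B and 170 in SPRR3, and a variant with another centre base lies 170 bases upstream in SFN and 111 in SPRR1B.

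The threshold for a call was 0.05 on the p of edgeR's quasi-likelihood test after Benjamini-Hochberg adjustment across the 12814 tested genes. With FOSL1sh3, 4 of the 9 tested squamous genes were called against GFPsh, where 10.9% of all tested genes were called: CALML5, TGM1 and SPRR3 rose (5.21% of all tested genes did) and SFN fell (5.65% did). With FOSL1sh10, 2 of 9 were called against GFPsh, where 5.28% of all tested genes were called: CALML5 rose (3.13% of all tested genes did) and KLK10 fell (2.15% did). Of the 9, CALML5 alone was called in the same direction against GFPsh with FOSL1sh3 and with FOSL1sh10, as were 1.55% of all tested genes (1.02% of all tested genes were higher with both hairpins). The median log2 fold change of the 9 genes was 0.45 with FOSL1sh3, against 0.01 over all tested genes, and -0.12 with FOSL1sh10, against 0.00 over all tested genes. Since the genes were chosen with earlier results of these data known, their shares of calls and medians, here and between the hairpins, are descriptions. They do not test a response of squamous genes as a set. Both comparisons use the same 3 control libraries. As the samples are bulk RNA, fewer cells expressing a gene and less of its RNA per cell cannot be told apart.

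**Figure D2:**
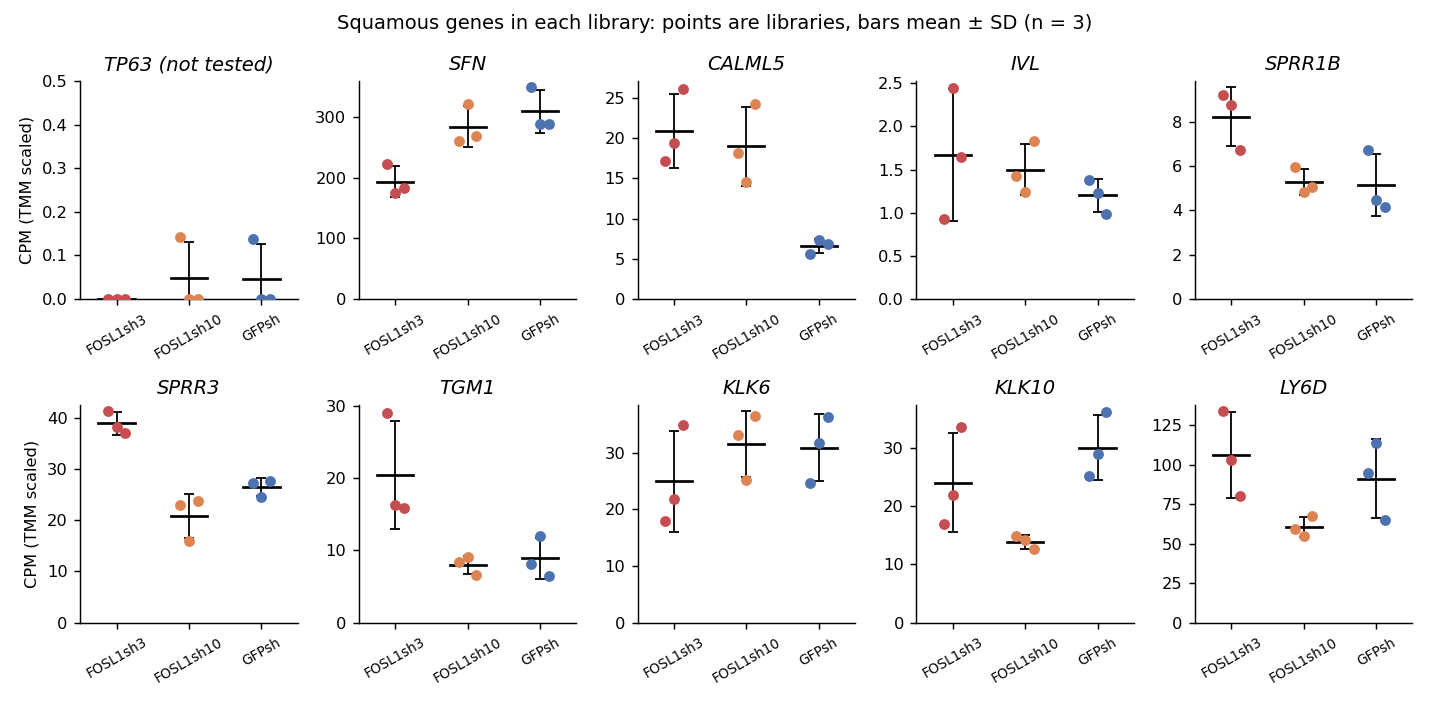
Level of each of the 10 squamous genes in every library, in CPM scaled by TMM (y axis, from 0, with its own range for each gene); points are libraries, long bars the mean and whiskers the SD (n = 3 per group), with FOSL1sh3, FOSL1sh10 and GFPsh from left to right. CALML5 is higher in all 6 libraries of the FOSL1 hairpins than in all 3 GFPsh libraries, while TGM1 and SPRR3 stand highest in FOSL1sh3 and KLK10 lowest in FOSL1sh10.

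TP63, the transcription factor of the basal squamous layer (ENSG00000073282.12, hg38 chromosome 3, 189631416 to 189897279, plus strand), had 2 counts over the 9 libraries. It had no count in FOSL1sh3, 1 count in FOSL1sh10 replicate 1 (0.142 CPM) and 1 count in GFPsh replicate 1 (0.138 CPM), with 0 in the other libraries. Every library was therefore at or under the limit of 3 counts, no difference was detectable at this depth, and TP63 RNA was not shown to be present in these EGI-1 cells. Its family member TP73 was tested and averaged 3.88 CPM in FOSL1sh3, 3.63 CPM in FOSL1sh10 and 4.00 CPM in GFPsh, without a call with either hairpin (adjusted p = 0.981 and 0.888).

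SFN encodes 14-3-3 sigma, an adaptor protein of squamous epithelium that is also a p53 target (ENSG00000175793.11, chromosome 1, 26863138 to 26864457, plus strand, 1 exon). It stood at 223, 175 and 182 CPM in FOSL1sh3 and at 261, 322 and 268 CPM in FOSL1sh10, against 350, 288 and 289 CPM in GFPsh. All 3 FOSL1sh3 libraries lay below all libraries of both other groups, while FOSL1sh10 and GFPsh overlapped. SFN averaged 193 ± 25.7 CPM in FOSL1sh3, 284 ± 33.5 CPM in FOSL1sh10 and 309 ± 35.2 CPM in GFPsh (SD, n = 3 each). With FOSL1sh3 it fell by 0.68 on the log2 scale (SE 0.147, adjusted p = 0.0076), to 0.625 of GFPsh, but the call did not hold without GFPsh replicate 1 (adjusted p = 0.0604). With FOSL1sh10 the log2 fold change was -0.12, with a 95% interval of -0.43 to 0.18 (adjusted p = 0.714).

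CALML5 encodes a calmodulin-like calcium-binding protein of differentiating keratinocytes (ENSG00000178372.7, chromosome 10, 5498697 to 5499555, minus strand, 1 exon). It stood at 17.2, 19.4 and 26.1 CPM in FOSL1sh3 and at 18.1, 14.6 and 24.3 CPM in FOSL1sh10, against 5.64, 7.30 and 6.82 CPM in GFPsh. The lowest library of either FOSL1 hairpin was above the highest control. CALML5 averaged 20.9 ± 4.66 CPM in FOSL1sh3, 19.0 ± 4.93 CPM in FOSL1sh10 and 6.59 ± 0.851 CPM in GFPsh (SD, n = 3 each). It rose 3.16-fold with FOSL1sh3 (log2 fold change 1.66, SE 0.232, adjusted p = 0.000301) and 2.87-fold with FOSL1sh10 (1.52, SE 0.232, adjusted p = 0.000518). Leaving out any 1 of the 9 libraries kept both calls, with adjusted p from 0.000245 to 0.00332 for FOSL1sh3 and from 0.000237 to 0.00567 for FOSL1sh10. Between the hairpins it differed by 0.14 on the log2 scale, with a 95% interval of -0.31 to 0.59 (adjusted p = 0.724).

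Among the envelope precursors, IVL (involucrin, ENSG00000163207.6, chromosome 1, 152908545 to 152911886, plus strand) had only 9 to 18 counts per library. It stood at 0.922, 2.45 and 1.65 CPM in FOSL1sh3 and at 1.42, 1.24 and 1.83 CPM in FOSL1sh10, against 1.38, 1.23 and 0.990 CPM in GFPsh. The 3 groups overlapped, and FOSL1sh3 held both the lowest and the highest library. IVL averaged 1.67 ± 0.763 CPM in FOSL1sh3, 1.5 ± 0.301 CPM in FOSL1sh10 and 1.20 ± 0.196 CPM in GFPsh (SD, n = 3 each). The log2 fold change was 0.45 with FOSL1sh3 (95% interval -0.52 to 1.41, adjusted p = 0.578) and 0.33 with FOSL1sh10 (95% interval -0.63 to 1.30, adjusted p = 0.758), so a difference of either sign was within the interval at this depth.

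SPRR1B, a small proline-rich envelope precursor (ENSG00000169469.8, chromosome 1, 153031202 to 153032900, plus strand), stood at 9.22, 8.78 and 6.73 CPM in FOSL1sh3 and at 5.98, 4.85 and 5.08 CPM in FOSL1sh10, against 6.74, 4.49 and 4.18 CPM in GFPsh. The lowest FOSL1sh3 library lay just under the highest control, and the means were 8.24 ± 1.33 CPM in FOSL1sh3, 5.30 ± 0.594 CPM in FOSL1sh10 and 5.14 ± 1.40 CPM in GFPsh (SD, n = 3 each). FOSL1sh3 was not called against GFPsh (log2 fold change 0.69, SE 0.257, adjusted p = 0.0893), nor was FOSL1sh10 (0.05, SE 0.265, adjusted p = 0.947). Its close copy SPRR1A had 23 counts over all libraries, and reads of near-identical sequence may be shared or lost between the pair, which makes both uncertain.

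SPRR3, another small proline-rich protein, known from oesophageal epithelium (ENSG00000163209.14, chromosome 1, 153001747 to 153003856, plus strand), stood at 41.3, 38.3 and 37.1 CPM in FOSL1sh3 and at 23.0, 16.0 and 23.8 CPM in FOSL1sh10, against 27.2, 24.5 and 27.7 CPM in GFPsh. The groups did not overlap: every FOSL1sh3 library lay above every control and every FOSL1sh10 library below every control. The means were 38.9 ± 2.16 CPM in FOSL1sh3, 20.9 ± 4.29 CPM in FOSL1sh10 and 26.5 ± 1.75 CPM in GFPsh (SD, n = 3 each). SPRR3 rose 1.47-fold with FOSL1sh3 (log2 fold change 0.55, SE 0.167, adjusted p = 0.0389). That call was close to the threshold and was lost without any 1 of the 6 libraries compared or FOSL1sh10 replicate 1 (adjusted p = 0.0513 to 0.126), with library totals as the only scaling (0.066) or without the filter on low counts (0.0523). With FOSL1sh10 the log2 fold change was -0.34 (SE 0.17), which did not pass the test (adjusted p = 0.288).

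TGM1 encodes the membrane-bound transglutaminase that crosslinks the envelope (ENSG00000092295.11, chromosome 14, 24249114 to 24264432, minus strand). It stood at 29, 16.3 and 15.9 CPM in FOSL1sh3 and at 8.39, 9.02 and 6.61 CPM in FOSL1sh10, against 8.12, 12 and 6.49 CPM in GFPsh. FOSL1sh3 was above both other groups in all 3 libraries, and its replicate 1 stood far above the other two. TGM1 averaged 20.4 ± 7.46 CPM in FOSL1sh3, 8.01 ± 1.25 CPM in FOSL1sh10 and 8.87 ± 2.84 CPM in GFPsh (SD, n = 3 each). It rose 2.3-fold with FOSL1sh3 (log2 fold change 1.20, SE 0.264, adjusted p = 0.00825), and without FOSL1sh3 replicate 1 the log2 fold change was 0.85 (adjusted p = 0.048). With FOSL1sh10 the log2 fold change was -0.15, with a 95% interval of -0.74 to 0.43 (adjusted p = 0.826).

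The kallikrein-related peptidases KLK6 and KLK10 are secreted proteins of squamous and glandular epithelia that lie in the same gene cluster on chromosome 19. KLK10 (ENSG00000129451.11, 51012739 to 51020175, minus strand) stood at 16.9, 21.9 and 33.6 CPM in FOSL1sh3 and at 14.9, 14.2 and 12.6 CPM in FOSL1sh10, against 25.2, 29 and 36.3 CPM in GFPsh. All FOSL1sh10 libraries lay below all others, and FOSL1sh3 spread from below into the control range. The means were 24.1 ± 8.60 CPM in FOSL1sh3, 13.9 ± 1.20 CPM in FOSL1sh10 and 30.1 ± 5.64 CPM in GFPsh (SD, n = 3 each). KLK10 fell to 0.46 of GFPsh with FOSL1sh10 (log2 fold change -1.12, SE 0.224, adjusted p = 0.00523), and leaving out any 1 library kept the call (adjusted p = 0.000736 to 0.0371). With FOSL1sh3 the log2 fold change was -0.33, with a 95% interval of -0.78 to 0.13 (adjusted p = 0.359).

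KLK6 (ENSG00000167755.14, chromosome 19, 50958631 to 50969673, minus strand) stood at 18.0, 21.9 and 35.0 CPM in FOSL1sh3 and at 33.1, 25.2 and 36.6 CPM in FOSL1sh10, against 24.6, 31.7 and 36.4 CPM in GFPsh. The 3 groups overlapped, with means of 25 ± 8.92 CPM in FOSL1sh3, 31.6 ± 5.86 CPM in FOSL1sh10 and 30.9 ± 5.92 CPM in GFPsh (SD, n = 3 each). Neither hairpin gave a call (log2 fold change -0.31, SE 0.224, adjusted p = 0.398 with FOSL1sh3 and 0.03, SE 0.221, adjusted p = 0.961 with FOSL1sh10). Exons of KLK10, KLK6 and LY6D share 240, 401 and 216 bases with a gene on the opposite strand. Those 3 neighbours had 0, 1 and 0 counts over all libraries. The counts do not separate strands, so these low counts do not show that reads in the shared bases went to KLK10, KLK6 or LY6D. The levels of these 3 genes are uncertain to that extent.

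LY6D encodes a GPI-anchored surface protein of squamous and urothelial cells (ENSG00000167656.4, chromosome 8, 142784880 to 142786592, minus strand). It stood at 134, 103 and 80.1 CPM in FOSL1sh3 and at 59.2, 54.9 and 67.5 CPM in FOSL1sh10, against 94.5, 114 and 64.7 CPM in GFPsh. FOSL1sh3 and GFPsh overlapped across most of their range, and FOSL1sh10 overlapped the controls through GFPsh replicate 3. The means were 106 ± 27.1 CPM in FOSL1sh3, 60.5 ± 6.38 CPM in FOSL1sh10 and 91.1 ± 24.9 CPM in GFPsh (SD, n = 3 each). Neither hairpin gave a call (log2 fold change 0.22, SE 0.197, adjusted p = 0.518 with FOSL1sh3 and -0.59, SE 0.199, adjusted p = 0.0976 with FOSL1sh10). The difference with FOSL1sh10 passed the test without GFPsh replicate 3 (adjusted p = 0.0306), without the filter on low counts (0.0108) and when only the groups compared were fitted (0.035).

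**Figure D3:**
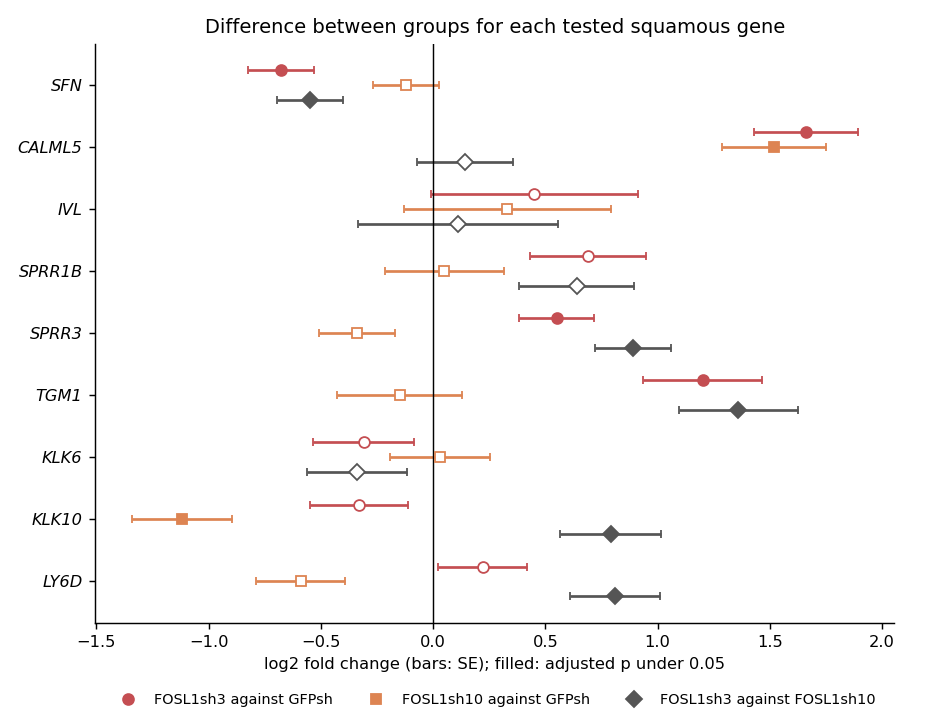
Log2 fold change of the 9 tested squamous genes (x axis, bars are SE) with FOSL1sh3 against GFPsh, FOSL1sh10 against GFPsh and FOSL1sh3 against FOSL1sh10; filled symbols have an adjusted p under 0.05. CALML5 is the only gene filled for both hairpins against GFPsh, at 1.66 and 1.52, and SPRR3, TGM1, KLK10, LY6D and SFN are filled where the hairpins are set against each other.

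The hairpins were also compared directly, FOSL1sh3 against FOSL1sh10, where FOSL1 itself differed by -0.05 on the log2 scale (95% interval -0.46 to 0.36). Of the 9 tested squamous genes 5 were called, where 12.7% of all tested genes were called: TGM1, SPRR3, LY6D and KLK10 were higher in FOSL1sh3 (5.74% of all tested genes were) and SFN was lower (7.00% were). The median log2 difference of the 9 genes was 0.64, against 0.00 over all tested genes. TGM1 differed by 1.36 (SE 0.267, adjusted p = 0.00302) and SPRR3 by 0.89 (SE 0.169, adjusted p = 0.00243), and leaving out any 1 library kept both. LY6D was higher by 0.81 on the log2 scale (SE 0.199, adjusted p = 0.0134), a call that did not hold without FOSL1sh3 replicate 1 (0.0665) or FOSL1sh10 replicate 2 (0.0666). KLK10 was higher by 0.79 (SE 0.226, adjusted p = 0.0276), a call that did not hold without FOSL1sh3 replicate 3 (0.158), FOSL1sh10 replicate 1 (0.0541), 2 (0.0793) or 3 (0.1), or with library totals as the only scaling (0.0656). SFN differed by -0.55 (SE 0.146, adjusted p = 0.0193), a call that did not hold without FOSL1sh3 replicate 2 (0.0508) or 3 (0.0552) or FOSL1sh10 replicate 2 (0.133). SPRR1B did not overlap between the hairpins but was not called (log2 difference 0.64, SE 0.256, adjusted p = 0.108), and IVL and KLK6 overlapped (adjusted p = 0.896 and 0.332).

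Groups that do not overlap in CPM were found for 4 of the 9 genes between FOSL1sh3 and GFPsh (29.2% of all tested genes), for 3 of 9 between FOSL1sh10 and GFPsh (27.3%) and for 6 of 9 between FOSL1sh3 and FOSL1sh10 (30.7%). The called genes thus differ in how far single libraries carry them. CALML5 with both hairpins, TGM1 with FOSL1sh3 and KLK10 with FOSL1sh10 remained called against GFPsh whichever library was left out, as did TGM1 and SPRR3 between the hairpins.

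**Figure D4:**
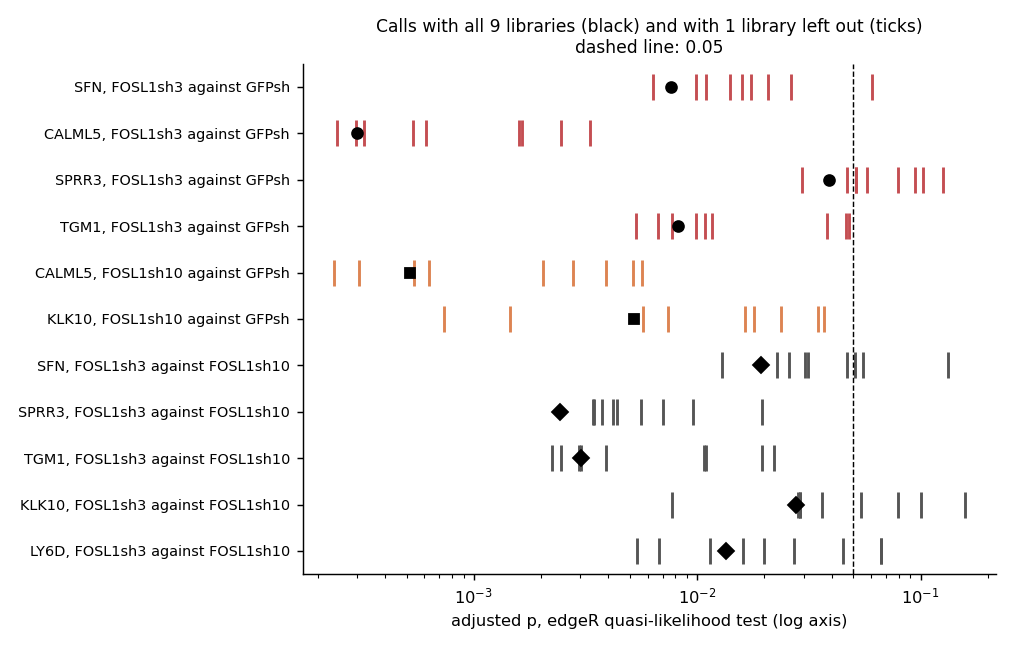
Adjusted p (log x axis, edgeR quasi-likelihood test) of each called squamous gene and comparison with all 9 libraries (black symbols) and with each of the 9 left out in turn (ticks); the dashed line is at 0.05. For SPRR3 with FOSL1sh3 against GFPsh 7 ticks lie to the right of the line, and all ticks of CALML5 lie to its left.

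Genes related to the 10 by pathway or family were counted from 10 lists, with 158 genes of which 78 were tested. These lists too were chosen with earlier results of these data known, so their counts are descriptions and do not test the lists. With FOSL1sh3, 12 of the 78 rose and 8 fell against GFPsh, and with FOSL1sh10, 5 rose and 5 fell. Over all tested genes 5.21% rose and 5.65% fell with FOSL1sh3, and 3.13% rose and 2.15% fell with FOSL1sh10. The median log2 fold change of the 78 was -0.05 with FOSL1sh3 and 0.07 with FOSL1sh10, against 0.01 and 0.00 over all tested genes. Few late cornified envelope genes were detected: of 40 envelope and late keratinocyte genes 16 had no count in any library, filaggrin (FLG) and loricrin (LORICRIN) among them, and 23, those 16 included, had 3 counts or fewer over all libraries. Of the 9 tested, PPL (periplakin) and EVPL (envoplakin), plakins that link the envelope to the cytoskeleton, rose with FOSL1sh3. PPL stood at 130, 125 and 184 CPM in FOSL1sh3 and at 51.6, 42.8 and 49.1 CPM in FOSL1sh10, against 56.2, 54.2 and 67.8 CPM in GFPsh. It was thus raised in every FOSL1sh3 library (log2 fold change 1.30, SE 0.163, adjusted p = 0.000105) and not called with FOSL1sh10 (-0.31, adjusted p = 0.31). EVPL averaged 60.4 CPM in FOSL1sh3, 36.7 CPM in FOSL1sh10 and 34.2 CPM in GFPsh (log2 fold change 0.82, adjusted p = 0.00646 with FOSL1sh3). With FOSL1sh10 EVPL was not called (0.10, adjusted p = 0.809). A2ML1, a protease inhibitor of the granular layer, fell with FOSL1sh10 to 8.99 CPM, against 17.6 CPM in GFPsh (log2 fold change -0.98, adjusted p = 0.00639), a call that did not hold without FOSL1sh10 replicate 3 (0.0521). A2ML1 was not called with FOSL1sh3 (-0.10, adjusted p = 0.781). Between the hairpins A2ML1 was higher in FOSL1sh3 (log2 difference 0.88, adjusted p = 0.00865).

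Of 7 other transglutaminases 3 were tested, and TGM2, the widely expressed tissue transglutaminase, rose with both hairpins, as did 1.02% of all tested genes. TGM2 averaged 408 ± 38.4 CPM in FOSL1sh3 and 574 ± 31.5 CPM in FOSL1sh10, against 255 ± 21.7 CPM in GFPsh (SD, n = 3 each), with log2 fold changes of 0.68 (adjusted p = 0.00423) and 1.17 (adjusted p = 3.24e-05). Between the hairpins it was lower in FOSL1sh3 (log2 difference -0.49, adjusted p = 0.0214), whereas TGM1 was higher in FOSL1sh3. Exons of TGM2 share 394 bases with RPRD1B on the opposite strand, and the counts do not separate strands, so its level is uncertain. RPRD1B had 2015 counts over all libraries, against 31267 for TGM2. Of 13 other kallikreins 2 were tested and neither was called, KLK5 averaging 50.4 CPM in FOSL1sh3, 50 CPM in FOSL1sh10 and 44.0 CPM in GFPsh.

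Of 9 tested protease inhibitors of squamous epithelium, 4 rose and 1 fell with FOSL1sh3, and 2 rose and 1 fell with FOSL1sh10. Over all tested genes 5.21% rose and 5.65% fell with FOSL1sh3, and 3.13% rose and 2.15% fell with FOSL1sh10. PI3 (elafin), which is both an elastase inhibitor and a transglutaminase substrate of the envelope, averaged 278 CPM in FOSL1sh3 and 190 CPM in FOSL1sh10, against 130 CPM in GFPsh (log2 fold change 1.10, adjusted p = 0.000727 with FOSL1sh3 and 0.55, adjusted p = 0.0669 with FOSL1sh10). The PI3 difference with FOSL1sh10 passed the test without FOSL1sh3 replicate 2 (0.0202) or 3 (0.0397), with only the groups compared (0.0106), with library totals (0.0217), without the filter (0.0194), with DESeq2 (0.0427) and with the replicate number as a block (0.0388). SLPI, the secretory leukocyte protease inhibitor, stood at 382, 392 and 476 CPM in FOSL1sh3 and at 222, 189 and 184 CPM in FOSL1sh10, against 205, 240 and 223 CPM in GFPsh. It rose with FOSL1sh3 (log2 fold change 0.91, adjusted p = 0.000744) and overlapped the controls with FOSL1sh10 (-0.17, adjusted p = 0.572). SERPINB2, the inhibitor PAI-2, moved in opposite directions: it fell with FOSL1sh3 to 73.7 CPM and rose with FOSL1sh10 to 253 CPM, against 157 CPM in GFPsh (log2 fold change -1.10, adjusted p = 0.00098, and 0.69, adjusted p = 0.0235). Leaving out FOSL1sh10 replicate 1, FOSL1sh10 replicate 2, GFPsh replicate 2 or GFPsh replicate 3 ended the FOSL1sh10 call of SERPINB2 (adjusted p = 0.0573 to 0.133). Its exons share 547 bases with SERPINB10 on the same strand, which had 22 counts over all libraries, against 12235 for SERPINB2. SPINT1, an inhibitor of membrane-bound serine proteases, averaged 148 CPM in FOSL1sh3 and 125 CPM in FOSL1sh10, against 88.0 CPM in GFPsh, and rose with both (log2 fold change 0.75, adjusted p = 0.00303, and 0.51, adjusted p = 0.0371). With FOSL1sh10 the SPINT1 call did not hold without any 1 of the 6 libraries (0.0657 to 0.17). Its exons share 100 bases with SPINT1-AS1 on the opposite strand, which had 3049 counts over all libraries, against 9075 for SPINT1. To complete the counts, cystatin CST6 rose with FOSL1sh3 (log2 fold change 0.63, adjusted p = 0.0142, with 0.0745 without GFPsh replicate 1 and 0.066 without replicate 3). SPINK5, the kallikrein inhibitor LEKTI, fell with FOSL1sh10 (-1.72, adjusted p = 0.00891, with 0.0526 without FOSL1sh10 replicate 2 and 0.0561 without GFPsh replicate 3). CST6 was not called with FOSL1sh10 (0.45, adjusted p = 0.0919), where it passed the test with library totals (0.0295). SPINK5 was not called with FOSL1sh3 (-0.65, adjusted p = 0.228).

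Of 20 tested keratinocyte transcription factors and Notch genes, 1 rose and 2 fell with FOSL1sh3 and 2 rose with FOSL1sh10. The shares over all tested genes were 5.21% and 5.65% with FOSL1sh3, and 3.13% for a rise with FOSL1sh10. KLF4, a factor of barrier formation, stood at 37.4, 52.1 and 29.8 CPM in FOSL1sh3 and at 77.5, 99.5 and 90.1 CPM in FOSL1sh10, against 49.4, 40.2 and 41.8 CPM in GFPsh. It was thus raised in FOSL1sh10 in all 3 libraries (log2 fold change 1.03, adjusted p = 0.00147) and not called with FOSL1sh3 (-0.14, adjusted p = 0.659). NOTCH1, the receptor that drives suprabasal commitment, averaged 24.0 CPM in FOSL1sh3 and 20.5 CPM in FOSL1sh10, against 13.4 CPM in GFPsh, and was called with FOSL1sh3 (log2 fold change 0.83, adjusted p = 0.00881) but not with FOSL1sh10 (0.60, adjusted p = 0.0664), where it passed the test without FOSL1sh3 replicate 3 (0.0375), with only the groups compared (0.0379) or with library totals (0.0314). ELF3, an epithelial ETS factor, rose with FOSL1sh10 (log2 fold change 0.59, adjusted p = 0.0116), a call that did not hold without FOSL1sh10 replicate 3 (0.071) or GFPsh replicate 1 (0.0889). Its exons share 554 bases with ELF3-AS1 on the opposite strand. With FOSL1sh3 ELF3 was not called (0.19, adjusted p = 0.395). GRHL3, a grainyhead factor of the epidermal barrier, fell with FOSL1sh3 to 3.20 CPM, against 7.56 CPM in GFPsh (log2 fold change -1.25, adjusted p = 0.0185), a call that ended without FOSL1sh3 replicate 1 (0.0592), FOSL1sh3 replicate 3 (0.054) or GFPsh replicate 2 (0.0903). In FOSL1sh10 GRHL3 averaged 4.34 CPM and was not called (-0.80, adjusted p = 0.146). The other gene that fell with FOSL1sh3 was the Notch ligand JAG1, named to complete the count (log2 fold change -0.96, adjusted p = 0.0336), and leaving out FOSL1sh3 replicate 1 or 2 or any GFPsh library ended that call (0.0693 to 0.124). So did fitting only the groups compared (0.0718). JAG1 was not called with FOSL1sh10 (0.37, adjusted p = 0.481). Between the hairpins JAG1 was lower in FOSL1sh3 (log2 difference -1.33, adjusted p = 0.00421).

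Of 11 tested desmosome and adhesion genes, 2 rose and 2 fell with FOSL1sh3 and 1 fell with FOSL1sh10. The shares over all tested genes were 5.21% and 5.65% with FOSL1sh3, and 2.15% for a fall with FOSL1sh10. JUP (plakoglobin), an armadillo protein of desmosomes and adherens junctions, averaged 333 CPM in FOSL1sh3 and 246 CPM in FOSL1sh10, against 191 CPM in GFPsh (log2 fold change 0.81, adjusted p = 0.00319 with FOSL1sh3 and 0.37, adjusted p = 0.18 with FOSL1sh10). PKP2, the plakophilin of simple epithelia and heart, averaged 13.1 CPM in FOSL1sh3 and 17.8 CPM in FOSL1sh10, against 26 CPM in GFPsh (-0.99, adjusted p = 0.00433 with FOSL1sh3 and -0.54, adjusted p = 0.117 with FOSL1sh10). Within this list a called rise and a called fall therefore stood side by side in FOSL1sh3. PERP, a p53 target of the desmosome, fell with FOSL1sh10 (log2 fold change -0.83, adjusted p = 0.00942), a call that was lost when FOSL1sh10 replicate 1 (0.0602) or GFPsh replicate 1 (0.065) was left out. It was not called with FOSL1sh3 (-0.43, adjusted p = 0.125). TRIM29, a keratin-binding protein of squamous cells, rose with FOSL1sh3 (log2 fold change 0.62, adjusted p = 0.0239), a call that did not hold without FOSL1sh3 replicate 3 (0.116) or GFPsh replicate 1 (0.0697) or 3 (0.0939). TRIM29 was not called with FOSL1sh10 (-0.26, adjusted p = 0.433). Between the hairpins TRIM29 was higher in FOSL1sh3 (log2 difference 0.88, adjusted p = 0.00253). DSC2, a desmosomal cadherin named to complete the count, also fell with FOSL1sh3 (log2 fold change -0.78, adjusted p = 0.0321), a call that ended without replicate 1 or 3 of FOSL1sh3 or of GFPsh (0.0695 to 0.124). DSC2 was not called with FOSL1sh10 (0.19, adjusted p = 0.708). Between the hairpins DSC2 was lower in FOSL1sh3 (log2 difference -0.97, adjusted p = 0.00891).

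Among relatives of LY6D with the same LY6 domain fold, 2 of 8 tested genes rose and 1 fell with FOSL1sh3, and 2 fell with FOSL1sh10. The shares over all tested genes were 5.21% and 5.65% with FOSL1sh3, and 2.15% for a fall with FOSL1sh10. PSCA, a GPI-anchored surface protein encoded near LY6D on chromosome 8, stood at 1418, 939 and 1285 CPM in FOSL1sh3 and at 328, 253 and 407 CPM in FOSL1sh10, against 612, 555 and 514 CPM in GFPsh. The 3 groups did not overlap, with FOSL1sh3 above and FOSL1sh10 below the controls, the order also seen for SPRR3. PSCA rose with FOSL1sh3 (log2 fold change 1.12, adjusted p = 0.000981) and fell with FOSL1sh10 (-0.77, adjusted p = 0.0158), the second call not holding without FOSL1sh10 replicate 1 (0.0545) or 2 (0.0978) or GFPsh replicate 1 (0.0712). Its exons share 368 bases with JRK on the opposite strand, which had 1693 counts over all libraries, against 53115 for PSCA. LY6E rose with FOSL1sh3 (log2 fold change 0.62, adjusted p = 0.024), a call that did not hold without FOSL1sh3 replicate 3 (0.052) or GFPsh replicate 1 (0.0861) or 3 (0.111), and its exons share 88 bases with LY6E-DT on the opposite strand. With FOSL1sh10 LY6E was not called (0.13, adjusted p = 0.732). LYPD6 fell with both hairpins (-1.15, adjusted p = 0.0452, and -1.32, adjusted p = 0.0359), with means of 2.17 CPM in FOSL1sh3 and 1.90 CPM in FOSL1sh10, against 4.75 CPM in GFPsh, but the FOSL1sh10 call did not hold without any 1 of the 6 libraries (0.0631 to 0.146), and leaving out any of 8 of the 9 libraries ended the FOSL1sh3 call (0.0548 to 0.162). Fitting only the groups compared also ended the FOSL1sh3 call (0.0717).

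All 6 other 14-3-3 genes were tested, and YWHAQ (14-3-3 theta) and YWHAH (14-3-3 eta) fell with FOSL1sh3, as did SFN. Over all tested genes 5.65% fell with FOSL1sh3. YWHAQ averaged 67.2 CPM in FOSL1sh3 and 136 CPM in FOSL1sh10, against 124 CPM in GFPsh (log2 fold change -0.88, adjusted p = 0.00755 with FOSL1sh3 and 0.14, adjusted p = 0.755 with FOSL1sh10). The YWHAH call (log2 fold change -0.50, adjusted p = 0.0438) ended when any of 8 of the 9 libraries was left out (0.0598 to 0.159) or only the groups compared were fitted (0.0875). With FOSL1sh10 YWHAH was not called (-0.18, adjusted p = 0.589). Exons of YWHAH share 22 bases with YWHAH-AS1. The median of the 6 genes was -0.47 with FOSL1sh3 and -0.07 with FOSL1sh10, and pseudogene copies of this family make their counts uncertain. None of 3 tested calmodulin relatives of CALML5 and none of 7 tested lipid barrier genes was called with either hairpin, with medians of -0.10 and -0.18 for the calmodulin relatives.

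**Figure D5:**
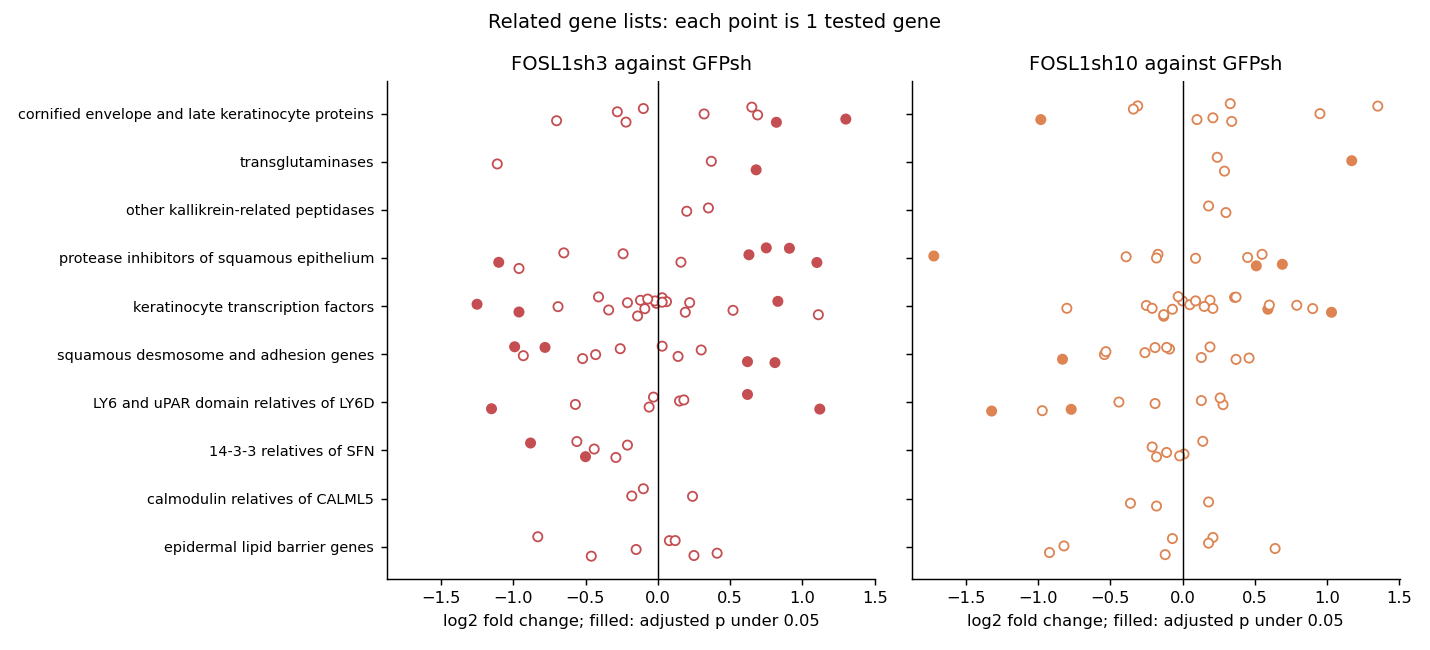
Log2 fold change (x axis) of each tested gene of the 10 related lists with FOSL1sh3 against GFPsh (left panel) and with FOSL1sh10 against GFPsh (right panel); each point is 1 gene, and filled points have an adjusted p under 0.05. With FOSL1sh3 the protease inhibitors hold 4 filled points above 0 and 1 below, while kallikreins, calmodulin relatives and lipid barrier genes hold none in either panel. Of all tested genes 10.9% were called with FOSL1sh3 and 5.28% with FOSL1sh10.

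The genes whose log2 CPM followed each squamous gene most closely over the 9 libraries were found among 9967 tested genes with a mean of at least 30 counts. They are a description only, since the libraries share their groups. Closest to CALML5 was JADE2 (Pearson r = 0.974), to SFN was CCNH (0.972), to TGM1 was RNASEH2C (0.962), to KLK10 was PUDP (0.973) and to LY6D was CLCF1 (0.982). SPRR3 was followed by PEPD (0.974), HSD11B2 (0.967) and PSCA (0.957). The closest genes to IVL, SPRR1B and KLK6 were KDM3A (0.956), PTPRM (0.958) and SEPHS1 (0.893). None of the closest 3 genes of any squamous gene was another of the 10. IVL and TP63 were under that limit of counts and could not appear. With only 3 places among 9967 genes, this does not show whether the squamous genes moved together.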

How the data were processed

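RNA was measured in 9 libraries of EGI-1 cells, grouped by the sample titles. The authors deposited raw counts per gene. Per the labels' protocols, only RNA above the authors' quality limit was used and libraries followed a low-input protocol (MARS-seq), which as background reads tags near the 3′ ends of transcripts, so levels are not compared between genes. Per the submitters' processing notes, FastQC 0.11.5, STAR 2.5.3a, featureCounts 1.6.0, edgeR and limma were named, with the build hg38. Per the file headers, counts were taken over exons of GENCODE release 28 with no option set for strand, multi-mapping reads or duplicates. The sources used here do not say whether molecular identifiers collapsed reads, and the limit of 3 counts covers counting error only.

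Gene identifiers were paired with symbols for 57754 of 58381 genes, and 27513 had a count. Counts were tested with edgeR 4.0.16 in R 4.3.3: TMM scaling, the filterByExpr defaults (at least 10 counts in enough libraries and 15 in total), quasi-likelihood F test, 1 fit of all 9 libraries on group, Benjamini-Hochberg adjustment over 12814 genes, common coefficient of variation 16.4%. The SE is the absolute log2 fold change divided by the root of the F statistic, and 95% intervals use it with the degrees of freedom of the test, unadjusted. Alternatives were DESeq2 1.42.0, limma 3.58.1 (voom), other scalings, no filter, only the groups compared, a replicate block and leaving out each library. The 10 genes, the related lists and the markers were chosen with earlier results of these data known. From each list up to 4 called genes with the smallest p were named, and other genes were named after their values were seen. Correlations used log2 CPM with a prior count of 2.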

Additional observations from a re-analysis of the deposited data

Results flagged for a closer look

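The hairpins differed from each other, by the test of the difference itself, in 5 squamous genes, in a comparison that called 12.7% of all tested genes. TGM1 (log2 difference of FOSL1sh3 against FOSL1sh10 1.36), SPRR3 (0.89), LY6D (0.81) and KLK10 (0.79) were higher in FOSL1sh3 and SFN (-0.55) was lower. Leaving out single libraries ended the calls of LY6D (adjusted p up to 0.0666), KLK10 (up to 0.158) and SFN (up to 0.133), but not those of TGM1 and SPRR3. For TGM1 and SFN only the FOSL1sh10 libraries overlapped the controls, and for KLK10 only the FOSL1sh3 libraries did. For LY6D the libraries of both hairpins overlapped the controls, and for SPRR3 the controls lay between the hairpins. The part of the higher squamous keratin sum, hepatocyte sum (mostly SERPINA1) and fibroblast and endothelium sum in FOSL1sh10 in these differences was not tested.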

How the results depend on the processing

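Of 432 values of the tested squamous genes under alternatives, 396 kept the direction and side of the threshold they had in the fit of all 9 libraries, 20 lost a call, 3 gained one and 13, none of them called, turned direction. Leaving out each of the 9 libraries in turn gave 599 to 1803 genes called with FOSL1sh3 against GFPsh (1392 with all libraries), 347 to 919 with FOSL1sh10 against GFPsh (676) and 712 to 1920 between the hairpins (1633). Fitting only the groups compared gave 966 with FOSL1sh3 against GFPsh, 1124 with FOSL1sh10 against GFPsh and 1310 between the hairpins. These fits hold fewer samples by construction, and beyond that the cause was not tested. Squamous genes called numbered 2 to 4 with FOSL1sh3, 2 to 3 with FOSL1sh10 and 2 to 5 between the hairpins when 1 library was left out.

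Scaling by library totals alone moved the median log2 fold change of all genes to -0.06 with FOSL1sh3, 0.11 with FOSL1sh10 and -0.17 between the hairpins. The share of calls that were higher was then 34.0% (48.0% with TMM), 77.5% (59.3%) and 17.6% (45.1%) in these comparisons, and 3, 2 and 4 squamous genes were called. Under that scaling the uncalled difference between the hairpins turned to -0.03 for CALML5 and -0.05 for IVL, and with voom to -0.004 for IVL. With 1 library left out these uncalled values spanned 0: CALML5 (-0.06 to 0.37) and IVL (-0.25 to 0.43) between the hairpins, KLF4 (-0.38 to 0.03) with FOSL1sh3, and with FOSL1sh10 TGM1 (-0.34 to 0.13), KLK6 (-0.11 to 0.16), SPRR1B (-0.08 to 0.28), EVPL (-0.08 to 0.20), LY6E (-0.02 to 0.32), YWHAQ (-0.03 to 0.30) and DSC2 (-0.01 to 0.34).

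With the replicate block 1456, 695 and 1673 genes and 4, 2 and 5 squamous genes were called, and among the related genes PI3 gained a call with FOSL1sh10 (adjusted p = 0.0388). Replicate numbers were not taken as pairs, since correlations between same-numbered libraries ran from -0.116 to 0.183 and the labels state no shared culture or day. Depth limits what can be said of IVL, at 0.922 to 2.45 CPM, and of TP63, under the limit of 3 counts.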
